A study of Mus musculus with 9 samples.

Results

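DNA methylation writers, readers and erasers were followed in the colonic mucosa of ApcMin/+ mice with and without p16 epimutation. They are 9 genes, Dnmt1, Uhrf1, Dnmt3a, Dnmt3b, Mbd2, Tet1, Tet2, Tet3 and Tdg, chosen as the rows of the deposited RNA-seq table that carry these symbols, and all 9 were found among the 54146 genes listed. Both genotypes were C57BL/6J mice of 15 wk that carry the ApcMin/+ allele, a heterozygous germline mutation of the tumor suppressor Apc. The comparison group was homozygous for p16cis in addition, a germline knock-in of a short cis-element that spreads DNA methylation over the promoter of p16. The 5 ApcMin/+ mice were 2 females and 3 males, and the 4 ApcMin/+; p16cis/cis mice were 3 females and 1 male. RNA came from colonic crypts according to the methods, each mouse is 1 sample, and the series asked how the transcriptomes of the 2 genotypes differ. The differences below are therefore those of p16cis/cis on an ApcMin/+ background.

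Methylation of cytosine in CpG pairs is written, copied, read and removed by different proteins. Dnmt3a and Dnmt3b encode the de novo methyltransferases, which place new marks, and Dnmt1 encodes the maintenance methyltransferase, which copies marks to the daughter strand after replication with the help of Uhrf1, a protein that binds hemimethylated CpG. Mbd2 encodes a protein that binds methylated DNA and brings in the NuRD chromatin remodeling complex, the Tet genes encode dioxygenases that oxidize methylated cytosine, and Tdg encodes the glycosylase that cuts out the oxidized bases, and thymine from G:T mismatches, for base excision repair. The intestinal epithelium renews quickly from dividing crypt cells, which copy their methylation marks at each division.

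Of these 9 genes, only Tdg passed the limma test between the genotypes with Benjamini-Hochberg adjustment over all 14410 genes tested. Its level among ApcMin/+; p16cis/cis mice was 0.58 times that among ApcMin/+ mice, and the genotypes did not overlap. Across all genes tested, 8.75% were called lower and 8.14% higher among ApcMin/+; p16cis/cis mice at an adjusted p under 0.05, so 1 of 9 members called is close to the background share. A set of 3.48% of all genes passed that threshold with a fold change over 2 in either direction, and 0 of the 9 members did. The genotypes did not overlap for 8.95% of all genes in the lower direction and for 7.24% in the higher direction, against 1 and 0 of the 9 members.

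Cdkn2a, the gene of p16 and p19Arf, was listed at 0 in all 9 mice, so these libraries do not check the p16cis label. Reads on genes ranged from 13523500 to 17885918 per mouse, and 3 reads of a library, the least taken as detected, are 1.68e-05% to 2.22e-05% of it, a floor that covers counting error only. Mitochondrial genes took 8.74% to 15.6% of the reads among ApcMin/+ mice and 19.3% to 29.8% among ApcMin/+; p16cis/cis mice, without overlap. All 6 epithelial markers were expressed, with a summed normalized count of 174440 to 253886 and of 169445 to 232889 in the 2 genotypes. Singly, 4 had log2 fold changes below 0 and 2 above 0, and 0 were called. The genotypes did not overlap for 1 of the 6, Epcam, which was lower, 8.95% being the share over all genes tested. The 34 markers of immune, stromal and endothelial cells summed to 506 to 2719 among ApcMin/+ mice and 700 to 975 among ApcMin/+; p16cis/cis mice. None of the 34 was at 0 in every mouse, but 4 of them were at 0 in all ApcMin/+; p16cis/cis mice. These were Adgre1, Lum, Cdh5 and Kdr, which reached at most 26.1 (Kdr) in an ApcMin/+ mouse and did not enter the test. Of the 34, 26 were tested, and 3 were called lower, Jchain, Lyz2 and Col3a1, 8.75% being the share over all genes tested. ApcMin/+ replicate 4 had the lowest sum of these markers, 506, against at least 1608 in the other ApcMin/+ mice. In bulk RNA, fewer cells of a type and less RNA per cell cannot be told apart.

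Sequences in front of 1 RefSeq start site each of Dnmt1, Uhrf1 and Tdg are shown. Dnmt1 and Uhrf1 were the pair of members most correlated between mice, though not past the threshold after adjustment. Tdg was the only member called between genotypes, a call that depended on the mice and the model. No link of these sequences to either result was tested. RefSeq start sites of GRCm38.p6 gave 13 windows for 8 of the 9 genes. For each gene shown the window with the most CpG pairs was taken, 250 bases that end just before its start site. The windows taken for Dnmt1 and Uhrf1 lie inside the spans of these genes, chr9:20907209-20959888 and chr17:56303321-56323486. Other RefSeq starts of both genes lie upstream of them, so they can hold transcribed bases. Capitals mark TTTCGCGC, an E2F-type motif, in Dnmt1 and Uhrf1, and TGACGTCA, the cAMP response element, in Tdg, on either strand.
Dnmt1, chr9:20952624-20952873, minus strand: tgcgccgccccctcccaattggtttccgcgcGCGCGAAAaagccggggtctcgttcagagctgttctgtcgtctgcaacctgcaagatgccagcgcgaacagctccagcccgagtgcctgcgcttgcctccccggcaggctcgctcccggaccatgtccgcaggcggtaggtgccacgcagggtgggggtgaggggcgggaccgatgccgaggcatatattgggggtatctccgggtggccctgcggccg
Uhrf1, chr17:56304063-56304312, plus strand: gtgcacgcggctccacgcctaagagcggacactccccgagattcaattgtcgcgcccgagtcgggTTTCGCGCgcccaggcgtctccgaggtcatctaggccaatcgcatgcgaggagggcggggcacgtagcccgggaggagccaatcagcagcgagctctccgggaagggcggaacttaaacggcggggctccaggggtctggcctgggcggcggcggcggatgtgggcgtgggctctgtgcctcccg
Tdg, chr10:82629588-82629837, plus strand: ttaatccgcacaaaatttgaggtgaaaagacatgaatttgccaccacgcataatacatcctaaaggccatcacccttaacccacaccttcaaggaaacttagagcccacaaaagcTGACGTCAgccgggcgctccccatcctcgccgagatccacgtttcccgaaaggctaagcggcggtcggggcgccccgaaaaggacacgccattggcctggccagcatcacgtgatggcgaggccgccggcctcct
The E2F-type match begins 219 bases before the start taken for Dnmt1, where it reads as the reverse complement. For Uhrf1 it begins 185 bases before the start taken. Searches of both strands for TTTCCCGC, TTTGGCGC and TTTCGCGC found at least 1 of the 3 in 1.53% of the 32851 promoter windows of the table, and TTTCGCGC alone in 0.256%. No other member window held one of the 3 motifs. Such a match is a description of letters and not a site of binding. The Tdg window held TGACGTCA 135 bases before the start, a motif in 1.55% of all windows, which no other window shown held. The 3 windows held 26 CpG pairs for Dnmt1, 30 for Uhrf1 and 19 for Tdg, against a median of 6 over all windows. They were taken for the most CpG pairs, which favors high counts for Dnmt1 and Uhrf1. The windows of Dnmt1 that were not taken held 2 and 7 pairs, and that of Uhrf1 held 10. The most CpG-rich window of a member was that of Tet2, with 51 pairs, more than 99.9% of the windows held.

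The maintenance genes did not pass the test between the genotypes and varied widely within them. Dnmt1 (ENSMUSG00000004099.16; chr9:20907209-20959888, minus strand) had normalized counts of 1281, 1470, 1352, 1000.4 and 1708 in ApcMin/+ replicates 1 to 5. It had 1923, 1037, 1529.7 and 907 in ApcMin/+; p16cis/cis replicates 1 to 4, a group that splits into a higher and a lower pair and spans the range of the other genotype. The means were 1362 ± 259 (SD, n = 5) and 1349 ± 467 (SD, n = 4), and the log2 fold change was -0.06 with a 95% interval of -0.52 to 0.41 (limma, adjusted p = 0.882). The higher pair of ApcMin/+; p16cis/cis mice was 1 male and 1 female and the lower pair 2 females. In females alone the log2 fold change of Dnmt1 was -0.39 (limma, adjusted p = 0.316), and the interaction of genotype with sex was 1.00 on the log2 scale with an unadjusted limma p of 0.0284 and an adjusted p of 0.722, resting on the 1 male with p16cis/cis.

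Uhrf1 (ENSMUSG00000001228.14; chr17:56303321-56323486, plus strand), the partner that recruits the maintenance enzyme, ranked the ApcMin/+ mice in the same order. Its normalized counts were 452, 609, 518, 264 and 776 among ApcMin/+ mice. They were 562, 404, 639 and 382 among ApcMin/+; p16cis/cis mice, all within the range of the ApcMin/+ mice. ApcMin/+ replicate 4 was lowest and replicate 5 highest, a ratio of 2.94 within 1 genotype. The log2 fold change was -0.03 with a 95% interval of -0.61 to 0.56 (limma, adjusted p = 0.961), an interval that leaves room for a change of either sign. A processed copy, Gm5648, holds 14.7% of the 50-base words of Uhrf1 transcripts and never exceeded a normalized count of 1.26.

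**Figure D1:**
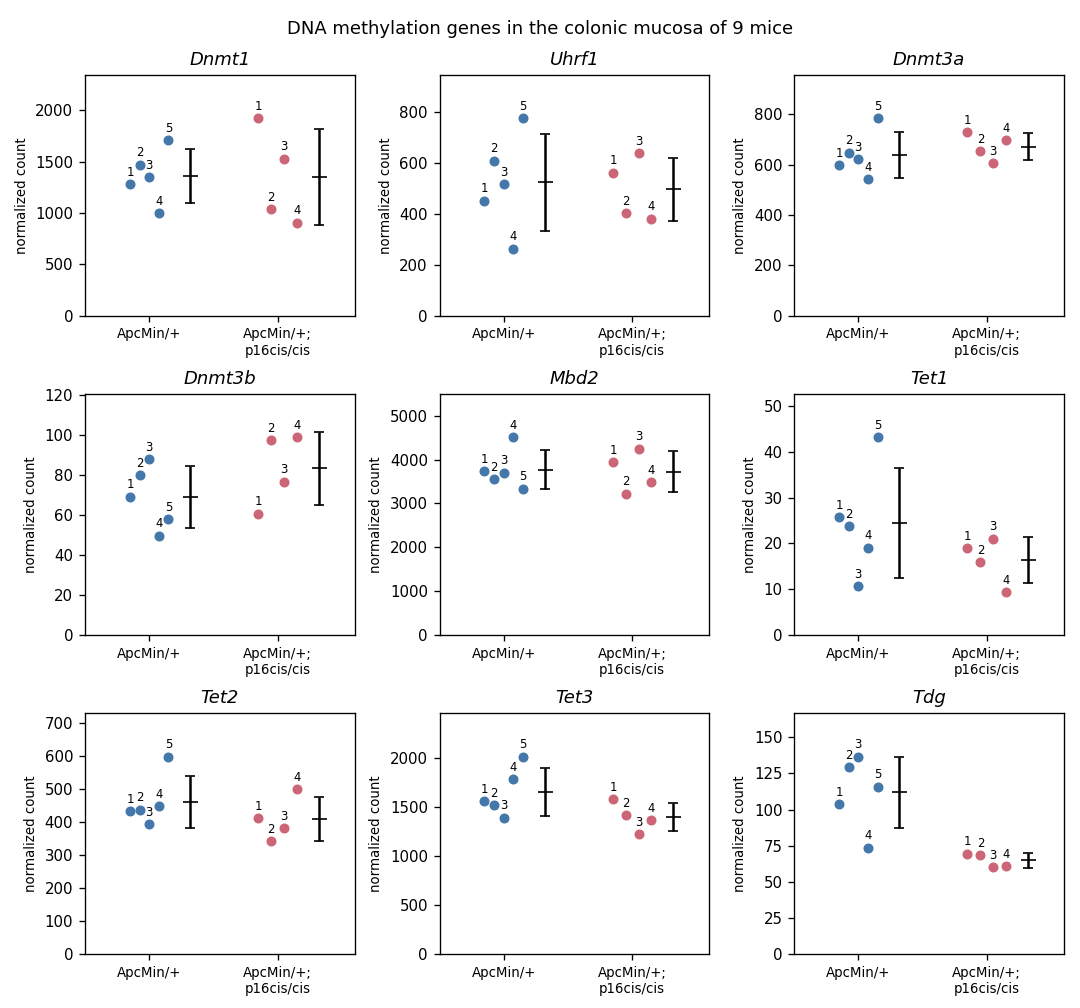
Normalized count (vertical axes, from 0) of the 9 DNA methylation genes in each of 5 ApcMin/+ mice (blue) and 4 ApcMin/+; p16cis/cis mice (red), numbered by replicate, with black bars for the mean ± SD of each genotype. Only for Tdg do the genotypes not overlap, with the ApcMin/+; p16cis/cis mice at 69.5 or less and the ApcMin/+ mice at 73.7 or more.

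Dnmt1 and Uhrf1 were the pair of members that varied together most closely once the genotype means were subtracted. Over 9 mice Pearson's r was 0.83 (exact permutation within genotype over 2880 arrangements, two-sided, p = 0.0031) and Spearman's rho was 0.88 (exact permutation p = 0.0063). After Benjamini-Hochberg adjustment over the 36 pairs of members these exact permutation p-values were 0.113 and 0.225, so no pair passed the threshold. Without the 2 mice farthest from the median of Dnmt1 r was 0.96, and with each mouse left out in turn it lay between 0.81 and 0.95. Dnmt1 per length was 1.34 to 2.31 times Uhrf1 in the 9 mice. Of the 36 pairs, 21 had a positive and 15 a negative r. Tet1 had a rho of 0.75 with both Dnmt1 and Uhrf1 (exact permutation p = 0.0389 and p = 0.0385, not past the threshold after adjustment).

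The genes most like Uhrf1 over the 9 mice, among 14408 others, were Hells, with r = 0.99, Pkia, with r = 0.99, and Hook1, with r = 0.99. Hells encodes the lymphoid-specific helicase, a chromatin remodeler needed for normal DNA methylation, and its level was 466 ± 199 (SD, n = 5) and 327 ± 116 (SD, n = 4) in the 2 genotypes. The genes most like Dnmt1 were Rsbn1, Tbc1d8b and Slc29a3, with r between 0.98 and 0.99. For Tet2 they were B4galt3, Zfp873 and Ces1c, with r of 0.96, 0.96 and 0.95. These genes were picked for the highest of many correlations, which are given as a description. On the same measure the replication licensing gene Mcm2 had r = 0.91 with Uhrf1, rank 134, and r = 0.84 with Dnmt1, rank 327, whereas Uhrf1 was at rank 347 for Dnmt1.

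**Figure D2:**
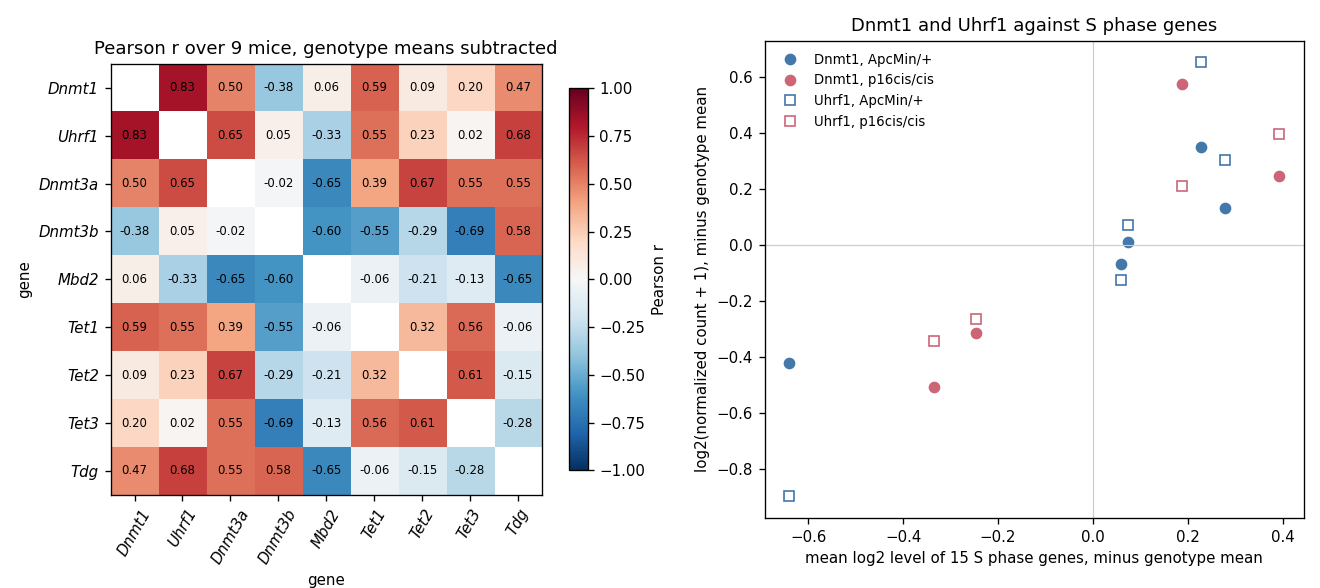
Left, Pearson's r between members over 9 mice after the genotype means were subtracted; the highest value, 0.83, is that of Dnmt1 and Uhrf1. Right, log2(normalized count + 1) of Dnmt1 (filled) and Uhrf1 (open) against the mean log2 level of 15 S phase genes, each minus its genotype mean; 1 ApcMin/+ mouse, replicate 4, lies far to the lower left.

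Replication genes were low in the mice that were low in the maintenance genes. The mean log2 level of 15 S phase genes, relative to the mean of the 9 mice, was 0.08, 0.30, 0.10, -0.62 and 0.25 in ApcMin/+ replicates 1 to 5 and 0.16, -0.27, 0.37 and -0.36 in ApcMin/+; p16cis/cis replicates 1 to 4. ApcMin/+ replicate 4 was lowest for these genes as for Dnmt1 and Uhrf1, and ApcMin/+; p16cis/cis replicates 1 and 3 were the higher pair in all 3 measures. The part of the share of dividing cells in the Dnmt1 and Uhrf1 values was not tested. Between genotypes, 1 of the 15 S phase genes was called, Gins2, which was higher, 8.14% being the share over all genes tested. Pcna, the sliding clamp that also binds the DNMT1 protein, was 849 ± 177 (SD, n = 5) and 622 ± 157 (SD, n = 4), and its log2 fold change was -0.45 (limma, adjusted p = 0.125). Mcm2 had a log2 fold change of -0.11 (limma, adjusted p = 0.792).

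Genes of G2 and mitosis were called in 1 direction. Of 13 such genes, 6 were called higher, 8.14% being the share over all genes tested, and 0 lower, and all 13 log2 fold changes were above 0, with a median of 0.43 against -0.004 over all genes tested. Mki67, which encodes a proliferation antigen, rose from 2332 ± 454 (SD, n = 5) to 4436 ± 969 (SD, n = 4), a log2 fold change of 0.92 (limma, adjusted p = 0.0066), without overlap. Top2a, a topoisomerase of dividing cells, was 2035 ± 407 (SD, n = 5) and 2255 ± 434 (SD, n = 4) and did not pass the test (log2 fold change 0.16, limma adjusted p = 0.564). Of all 28 cell cycle genes 7 were called higher, and without ApcMin/+; p16cis/cis replicate 2 this count was 2, the lowest with any mouse left out, against 7 without ApcMin/+ replicate 4. It was 3 without ApcMin/+ replicate 1 or without ApcMin/+; p16cis/cis replicate 1, and 4 without ApcMin/+ replicate 2 or without ApcMin/+; p16cis/cis replicate 4. The count in the lower direction was 2 without ApcMin/+ replicate 4. In females only 2 cell cycle genes were called higher, and with the mitochondrial share as a covariate 0 were. Markers of epithelial cell types were compared as well. The 6 colonocyte markers all had log2 fold changes below 0, with a median of -0.58 and 1 called lower. They summed to normalized counts of 126147 to 267977 for ApcMin/+ against 87974 to 115050 for ApcMin/+; p16cis/cis, without overlap. That sum is weighted to the genes with the highest counts. Their mean log2 level, relative to the mean of the 9 mice, did overlap, at -0.07 to 0.89 and -0.84 to -0.04. Taken singly, the genotypes did not overlap for 1 of the 6, which was lower, 8.95% being the share over all genes tested. Of 6 crypt stem cell markers 5 had log2 fold changes above 0, with a median of 0.36 and 1 called higher, and their sums overlapped, at 8951 to 15459 and 10190.3 to 13619. Goblet cell markers had a median log2 fold change of 0.25, with 1 of 6 called higher. For calls in these 3 marker lists, the shares over all genes tested were 8.75% lower and 8.14% higher. None of these markers was at 0 in every mouse of a genotype, and their part in the cell cycle differences was not tested.

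The de novo methyltransferase genes did not pass the test. Dnmt3a (ENSMUSG00000020661.15; chr12:3806007-3914443, plus strand) had normalized counts of 598, 648, 621, 543 and 784 among ApcMin/+ mice and 729, 652, 607 and 699 among ApcMin/+; p16cis/cis mice, which lie inside the range of the other genotype. Its log2 fold change was 0.08 with a 95% interval of -0.18 to 0.34 (limma, adjusted p = 0.685), narrower than that of every other member but Mbd2. Dnmt3b (ENSMUSG00000027478.15; chr2:153649450-153687730, plus strand) was much lower, at 69.2, 79.9, 87.8, 49.6 and 57.9 among ApcMin/+ mice. It was 60.6, 97.3, 76.6 and 98.7 among ApcMin/+; p16cis/cis mice, in 2 of which it exceeded every ApcMin/+ mouse. The log2 fold change was 0.27 with a 95% interval of -0.24 to 0.79 (limma, adjusted p = 0.454). Dnmt3a exceeded Dnmt3b 2.99 to 6.04 times per length in the 9 mice. Dnmt3c, which holds 9.81% of the 50-base words of Dnmt3b, and Dnmt3aos, which overlaps an exon of Dnmt3a on the other strand, were at 0 in all mice.

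Mbd2 (ENSMUSG00000024513.16; chr18:70568189-70626131, plus strand) was the member with the highest level per length, and its highest mouse was 1.40 times its lowest, the smallest such ratio among the members. It had 3738, 3557, 3699, 4506 and 3337 normalized counts among ApcMin/+ mice and 3945, 3225, 4253 and 3493 among ApcMin/+; p16cis/cis mice. ApcMin/+ replicate 4, lowest of its genotype for 5 members, was highest for Mbd2. The log2 fold change was -0.02 with a 95% interval of -0.27 to 0.24 (limma, adjusted p = 0.943).

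The 3 Tet genes had log2 fold changes below 0, and none of them passed the test. Tet3 (ENSMUSG00000034832.15; chr6:83362373-83459084, minus strand) had 1562, 1524, 1392, 1785 and 2016 among ApcMin/+ mice and 1579.7, 1418, 1228 and 1371 among ApcMin/+; p16cis/cis mice, 2 of which lay below every ApcMin/+ mouse. Its log2 fold change was -0.24 with a 95% interval of -0.50 to 0.03 (limma, adjusted p = 0.200, unadjusted p = 0.0772). Tet2 (ENSMUSG00000040943.12; chr3:133463679-133545139, minus strand) had 432, 436, 393, 447 and 597 among ApcMin/+ mice. In ApcMin/+; p16cis/cis mice it had 410.4, 341, 380.2 and 498. Its log2 fold change was -0.18 with a 95% interval of -0.50 to 0.15 (limma, adjusted p = 0.447), and the highest mouse of each genotype stood above the other mice of its group. Tet1 (ENSMUSG00000047146.17; chr10:62804570-62908996, minus strand) was near the limit of the filter, with 6 to 38 reads per mouse. Its normalized counts were 25.7, 23.8, 10.7, 19.1 and 43.1 among ApcMin/+ mice and 18.9, 15.95, 21.0 and 9.40 among ApcMin/+; p16cis/cis mice. The log2 fold change was -0.48 with a 95% interval of -1.37 to 0.41 (limma, adjusted p = 0.449).

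Within the Tet family, the mean shares of Tet3 and Tet2 differed between the genotypes by less than the SD of either genotype. Within the Dnmt family, the mean share of Dnmt1 differed by more than the SD of the ApcMin/+ mice. That difference was less than the SD of the ApcMin/+; p16cis/cis mice. Per length, Tet3 gave 74.6% ± 1.28 (SD, n = 5) of the summed Tet level among ApcMin/+ mice and 73.8% ± 3.46 (SD, n = 4) among ApcMin/+; p16cis/cis mice. Tet2 gave 24.6% ± 1.11 (SD, n = 5) and 25.5% ± 3.55 (SD, n = 4), and Tet1 no more than 1.19% in any mouse. Of the summed Dnmt level, Dnmt1 gave 73.7% ± 1.47 (SD, n = 5) and 70.8% ± 7.99 (SD, n = 4). Its share was 61.9% and 66.3% in ApcMin/+; p16cis/cis replicates 4 and 2 and 76.4% and 78.6% in replicates 3 and 1. No test was made of these shares.

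**Figure D3:**
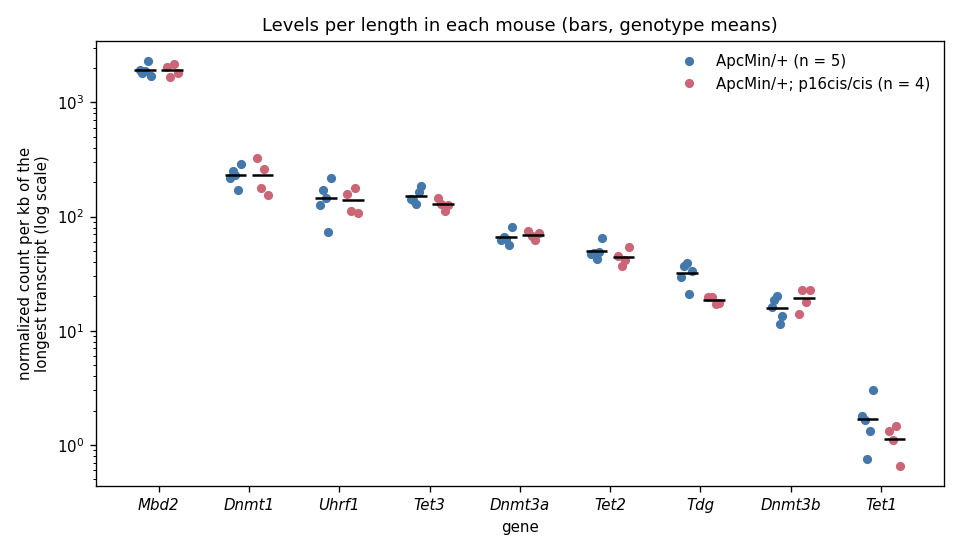
Normalized count per kb of the longest transcript (vertical axis, log scale) of the 9 genes in each of 5 ApcMin/+ mice (blue) and 4 ApcMin/+; p16cis/cis mice (red), with black bars for the genotype means. Mbd2 lies above all others, Tet1 below all others, and Uhrf1 overlaps Tet3.

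Across the 9 mice the order of mean levels per kb of the longest transcript ran from Mbd2, at 1920.4, through Dnmt1, at 231, Uhrf1, at 143, Tet3, at 141, Dnmt3a, at 67.5, Tet2, at 47.6, Tdg, at 26.0, and Dnmt3b, at 17.4, to Tet1, at 1.45. Uhrf1 exceeded Tet3 in 5 of 9 mice and Tdg exceeded Dnmt3b in 6 of 9, so these neighbors are not separated beyond their spread. In the other neighboring pairs the higher gene was higher in all 9 mice. With the merged exon length of each gene the order was the same.

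Tdg (ENSMUSG00000034674.18; chr10:82629828-82650799, plus strand) was the only member called. Its normalized counts were 104, 129, 137, 73.7 and 116 among ApcMin/+ mice. They were 69.5, 68.6, 60.1 and 61.1 among ApcMin/+; p16cis/cis mice, all below the lowest ApcMin/+ mouse. The mean fell from 112 ± 24.8 (SD, n = 5) to 64.8 ± 4.89 (SD, n = 4), a log2 fold change of -0.75 with an SE of 0.21 and a 95% interval of -1.20 to -0.30 (limma, adjusted p = 0.0301). For Tdg alone the exact permutation test over the 126 splits of the mice gave p = 0.0159 (two-sided), and over the 40 arrangements within sex p = 0.025, the smallest they allow. For the other 8 members the exact permutation test gave p between 0.119 and 0.944. These values rest on 39 to 140 reads per mouse.

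The coefficient of variation of Tdg was 22.1% among ApcMin/+ mice and 7.55% among ApcMin/+; p16cis/cis mice, a difference that was not tested. ApcMin/+ replicate 4, the mouse nearest to the other genotype, was also the ApcMin/+ mouse lowest in immune and stromal markers and in S phase genes, and without it the log2 fold change was -0.89 (limma, adjusted p = 0.0053). Tet3 per length was 6.56 to 7.31 times Tdg among ApcMin/+; p16cis/cis mice and 3.27 to 7.77 times among ApcMin/+ mice. Several pseudogenes resemble Tdg, of which Tdg-ps holds 29.4% of its 50-base words, Gm9855 15.8% and Gm5597 15.0%, and none exceeded a normalized count of 2.54 in any mouse. With these copies added the level was 114 ± 24.6 (SD, n = 5) and 65.5 ± 4.96 (SD, n = 4) (two-sided exact permutation p = 0.0159). The copies add so little that this sum could hardly differ from Tdg alone. Whether reads were placed wrongly between Tdg and its copies was not tested. Glt8d2, which overlaps Tdg on the other strand, was at 3.19 or less.

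The Tdg call depended on the mice and the model. Of 24 other settings 10 kept the call, among them the count tests of edgeR (adjusted p = 0.0287) and DESeq2 (adjusted p = 0.0077), and 14 did not, while the log2 fold change stayed between -0.89 and -0.60. With 1 mouse left out at a time it was lost in 7 of 9 fits, namely without ApcMin/+ replicate 1 (limma adjusted p = 0.0513), 2 (0.0798), 3 (0.0833) or 5 (0.0559), or without ApcMin/+; p16cis/cis replicate 2 (0.0625), 3 (0.0581) or 4 (0.0773). With sex as a covariate the adjusted limma p was 0.0663. The mitochondrial share does not overlap between the genotypes, so that share and the genotype cannot be told apart, and with it as a covariate the log2 fold change of Tdg was -0.60 (limma, adjusted p = 0.860). That fit called 0 genes of either direction among all tested, against 798 genes at an unadjusted limma p under 0.05.

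**Figure D4:**
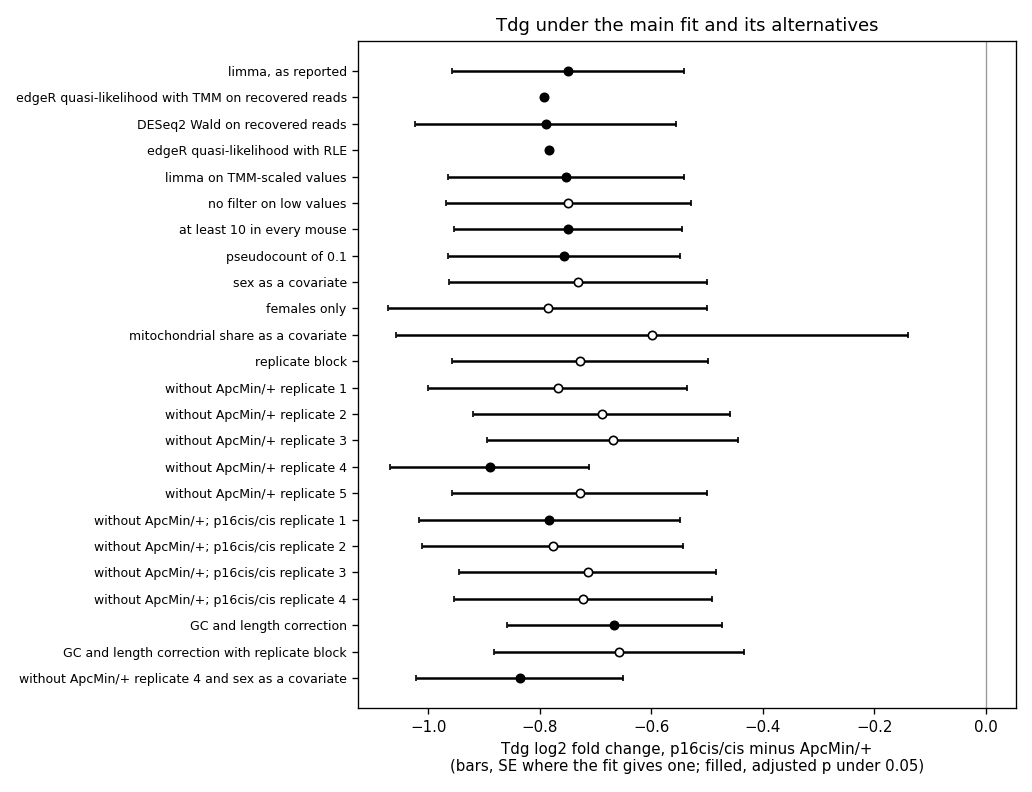
Log2 fold change of Tdg, ApcMin/+; p16cis/cis minus ApcMin/+ (horizontal axis), in the reported limma fit and under each alternative fit. Bars are the SE where the tool gives one, and filled points have an adjusted p under 0.05. All values lie between -0.89 and -0.60. Of the 24 alternatives, 10 are filled, and the Bonferroni adjustment, which keeps the log2 fold change and did not keep the call, is not drawn.

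The wider pathway was described with 62 further genes, of which 57 were tested. Of these, 5 were called lower and 5 higher, 8.75% and 8.14% being the shares over all genes, and their median log2 fold change was -0.05. Partners of the demethylation and repair pathway of Tdg moved in both directions, with 1 of 13 lower and 2 higher. Apex1, the endonuclease that acts after the glycosylase, fell from 223 ± 45.4 (SD, n = 5) to 128 ± 35.5 (SD, n = 4), a log2 fold change of -0.82 (limma, adjusted p = 0.0224). Xrcc1, the scaffold of single-strand break repair, rose from 638 ± 17.4 (SD, n = 5) to 826 ± 28.6 (SD, n = 4), a log2 fold change of 0.37 (limma, adjusted p = 0.0156). Gadd45g, a stress-induced gene of a family linked to demethylation, was 80.8 to 149 among ApcMin/+ mice and 234, 392.4, 284 and 941 among ApcMin/+; p16cis/cis mice. The log2 fold change of 1.69 (limma, adjusted p = 0.0095) was the largest of the 57 genes. The genotypes did not overlap for these 3 genes.

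Of 9 genes listed as readers besides Mbd2, 1 was called lower and 2 higher, 8.75% and 8.14% being the shares over all genes. Whether the product of each binds methylated DNA was not tested. Mbd3, the NuRD subunit that resembles Mbd2, rose from 1109.6 ± 56.1 (SD, n = 5) to 1498 ± 217 (SD, n = 4), a log2 fold change of 0.42 (limma, adjusted p = 0.0224). Mbd6, which carries a methyl-CpG binding domain, rose by 0.60 on the log2 scale (limma, adjusted p = 0.0067). Zbtb33, which encodes Kaiso, a zinc finger protein that binds methylated DNA, fell by 0.77 on the log2 scale (limma, adjusted p = 0.0308). Of 11 other NuRD subunits, listed apart from the readers, 0 were called. Chd4, the remodeling ATPase of the complex, had a log2 fold change of 0.10 (limma, adjusted p = 0.479). Of 5 CXXC proteins, which bind unmethylated CpG, Cxxc1 was called, with 1418 ± 147 (SD, n = 5) and 2006 ± 112 (SD, n = 4) and a log2 fold change of 0.50 (limma, adjusted p = 0.0087).

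Genes listed for supply of the methyl donor or the TET cofactor were called in 1 direction, with 3 of 14 lower and 0 higher. The shares over all genes were 8.75% and 8.14%. Mat2b, the regulatory subunit of the enzyme that makes S-adenosylmethionine, fell from 1753 ± 149 (SD, n = 5) to 1147 ± 249 (SD, n = 4), a log2 fold change of -0.63 (limma, adjusted p = 0.0124). Idh1, which makes the 2-oxoglutarate that TET enzymes use, had a log2 fold change of -0.40 (limma, adjusted p = 0.0211). Ahcyl1, related to the hydrolase that clears S-adenosylhomocysteine, had a log2 fold change of -0.30 (limma, adjusted p = 0.0290). Ahcy, the gene of that hydrolase, was not called, at 533 to 938 among ApcMin/+ mice and 703 to 833 among ApcMin/+; p16cis/cis mice. Of 5 writer cofactors tested 0 were called, and Usp7, the deubiquitinase of DNMT1 and UHRF1, had a log2 fold change of -0.05 (limma, adjusted p = 0.730). The count of 5 genes lower was 1 without ApcMin/+ replicate 2 or 3 or without ApcMin/+; p16cis/cis replicate 2 or 4, and 8 without ApcMin/+ replicate 4.

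**Figure D5:**
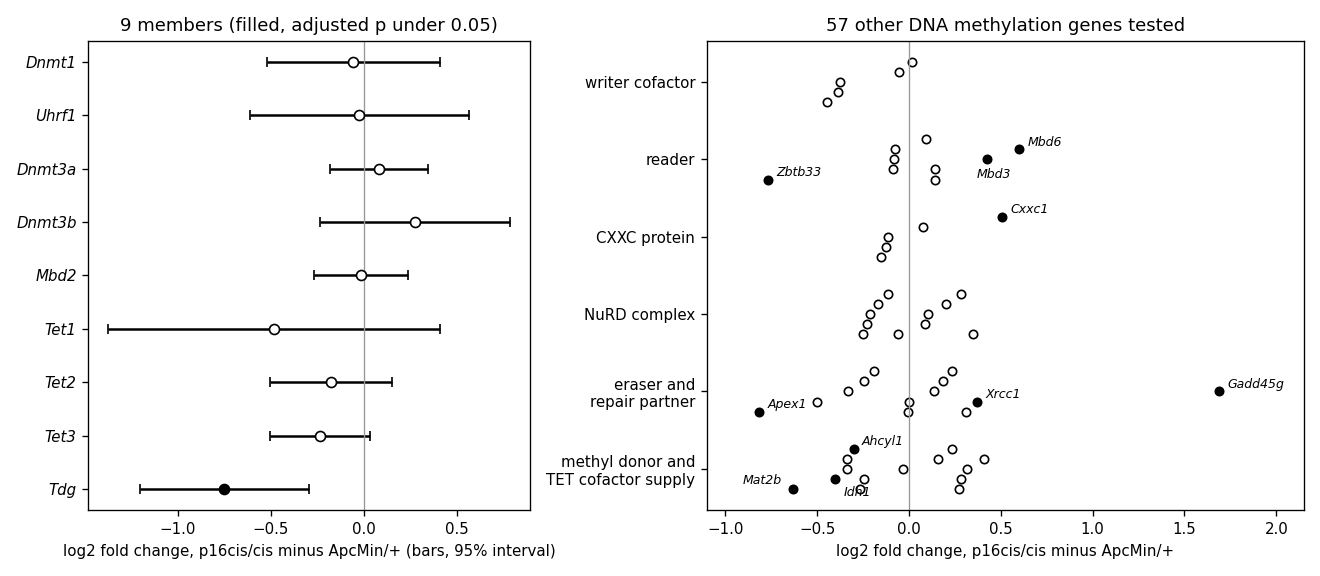
Left, log2 fold change of the 9 members, ApcMin/+; p16cis/cis minus ApcMin/+, with 95% intervals from limma. Right, the same difference for 57 other DNA methylation genes by role; filled points passed an adjusted p under 0.05, which are Tdg on the left and 5 lower and 5 higher genes on the right.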

How the data were processed

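RNA-seq of colonic crypts from 9 mice was used, each mouse being 1 replicate. According to the methods, RNA was sequenced on the BGISEQ-500, aligned with BOWTIE2, quantified with RSEM and compared with DESeq2. The genome build, annotation, strandedness and tool versions of the RNA-seq are not given in the sources used here. The authors deposited 1 table of signal values, normalized counts that carry one size factor per mouse, and dividing each column by its smallest positive value gave whole reads for 100% of positive values, to within 0.01 reads.

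Because the values are normalized, log2(normalized count + 1) was fitted with limma 3.58.1 (R 4.3.3, trended variances) against genotype alone, for the 14410 genes that reached 10 in 4 or more mice, and p-values were adjusted by Benjamini-Hochberg over all of them. Fold changes on this scale understate the change of low genes. An adjusted p under 0.05 was called. The recovered reads were also tested as counts with DESeq2 1.42.0 and edgeR 4.0.16. Single genes were compared by exact permutation of the mice. Members were also correlated over the mice after subtraction of genotype means, with permutation inside each genotype. Levels between genes were compared per kb of the longest transcript. Coordinates, lengths and 50-base words shared between genes came from GENCODE M21 (GRCm38), and promoter windows from the RefSeq table of GRCm38.p6.

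The members, gene lists, promoter motifs and tests were chosen with earlier results of these data known. The genes named are the 9 members, up to 4 called genes of each role of the wider list or 1 gene where none was called, 4 cell cycle genes, and the 3 genes most correlated with Dnmt1, Uhrf1 and Tet2. Gins2, Hells and the immune, stromal and endothelial markers named are given because a count or a rank turned on them. Ahcy is named beside its relative Ahcyl1. The fit was tested on simulated data. Chosen after seeing the data were a loess correction (span 0.5) for length and GC content, alone or with the replicate block, and a fit with sex that leaves out ApcMin/+ replicate 4. Proteins were not analysed here, and no promoter of Mbd2 was used.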

Additional observations from a re-analysis of the deposited data

Results flagged for a closer look

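Tet2 in ApcMin/+ replicate 5 had a normalized count of 597, and the 4 other ApcMin/+ mice lay between 393 and 447. The gap to the nearest mouse was 0.734 of the range of the group, above Dixon's 95% limit of 0.71 for 5 mice. It was the 1 mouse found in 18 groups (9 genes in each genotype), and chance alone marks about 1 group in 20. The same mouse was the highest of its genotype for 6 of the 9 members.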

How the results depend on the processing

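The 24 other settings for each member (23 for Tet1, which the filter of 10 in every mouse removed) left the direction of Tet1, Tet3 and Tdg as reported, and none of the 8 members other than Tdg passed the threshold under any of them. The count of members called lower, 1 as reported, was 0 with no filter on low values, with sex as a covariate, in females only, with the mitochondrial share as a covariate, with the replicate block, with the GC and length correction with replicate block, and with Bonferroni adjustment; it ranged from 0 to 1 with 1 mouse left out. The other DNA methylation genes called, 5 lower and 5 higher, were 2 lower with sex as a covariate, 0 lower and 2 higher in females only, 0 and 0 with the mitochondrial share, 3 higher with the GC and length correction, and 3 lower and 1 higher with that correction and the replicate block; with 1 mouse left out they ranged from 1 to 8 lower and from 4 to 6 higher. The cell cycle genes called, 0 lower and 7 higher, were 2 higher in females only, 0 with the mitochondrial share, 4 with the GC and length correction, with or without the replicate block, and 1 lower without ApcMin/+ replicate 4 and sex as a covariate; with 1 mouse left out they ranged from 0 to 2 lower and from 2 to 7 higher. The cause of these changes was not tested.

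Log2 fold changes near 0 changed sign. That of Dnmt1 was 0.59 with the mitochondrial share and 0.030 with the replicate block, and -0.25 to 0.11 with 1 mouse left out. That of Uhrf1 was 0.33 with the mitochondrial share, 0.14 with the replicate block, 0.11 with the GC and length correction and the block, and -0.25 to 0.14 with 1 mouse left out. That of Mbd2 was 0.040 in females only, 0.031 with sex as a covariate, 0.29 with the mitochondrial share, 0.069 without ApcMin/+ replicate 4 and sex as a covariate, and -0.081 to 0.051 with 1 mouse left out. Dnmt3a had -0.072 in females only, Dnmt3b -0.0046 with the mitochondrial share and Tet2 0.020 with the GC and length correction and the block.

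The replicate numbers name different mice, and the labels give no pairing by number. Same-numbered mice correlated at -0.18, 0.07, 0.05 and 0.14 in their deviations, with 2 of 4 best matched to their own number. So few comparisons do not settle whether the numbers carry a pairing, and the block is given only as an alternative. No pair of members passed the threshold with any mouse left out. Tet1 had the fewest reads, 6 to 38 per mouse, and so the largest counting error.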
